A study of Mus musculus with 4 samples.

Results

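Neuropeptides are cut from larger precursor proteins, stored in dense-core vesicles and released from nerve fibres to act on receptors in the membrane of nearby cells. The 10 genes described here encode the precursors of peptides known from fibres of the cochlea or of the autonomic nervous system. They are Calca, Calcb, Tac1, Sst, Npy, Gal, Adcyap1, Vip, Penk and Pdyn, chosen by symbol, and all 10 were among the 24411 genes of a count table of mouse cochlear RNA at postnatal day 7. The tested animals were homozygous for a knockout of Otof, and the animals they were set against were heterozygous for it. Otof encodes otoferlin, the calcium sensor for transmitter release at the synapses of inner hair cells. There were 2 pools of each genotype, and each pool held the cochleas of 2 to 3 pups. Both genotypes carry the knockout allele, and no wild-type group was analysed here. The labels name neither strain nor sex, nor how the allele was made. The labels do not say that the pools of a genotype came from separate litters, so p-values measure the spread between these pools.

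As background, cells that use peptides in and around the cochlea are of several kinds. Efferent fibres from the brainstem contain calcitonin gene-related peptide and opioid peptides beside acetylcholine, sympathetic fibres along blood vessels and in the osseous spiral lamina contain neuropeptide Y, and parasympathetic fibres contain vasoactive intestinal peptide. The cell bodies of efferent neurons lie in the brainstem and those of sympathetic neurons in ganglia of the neck, so that most of their RNA lies outside the cochlea. Afferent neurons and resident cells of the cochlea can also transcribe peptide genes, Calca in type II spiral ganglion neurons among them.

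Estimated counts summed to 38090726 and 31509349 in the homozygous pools and to 36060275 and 32453532 in the heterozygous pools. A gene with 0 counts may still have up to 3, which came to 0.0776 to 0.0944 counts per 1000000 (CPM) and covers counting error only. Otof itself had 5 and 9 counts in the homozygous pools and 86 and 83 in the heterozygous pools, which fits the labels. The homozygous pools differed in sex-linked RNA, with 2 Xist counts and 3878 Ddx3y counts in replicate 1 and 19085 Xist counts and 0 Ddx3y counts in replicate 2, and both heterozygous pools held both. edgeR's quasi-likelihood test called 0 of the 15359 genes tested at an adjusted p under 0.05 (0%), with 13.3% at an unadjusted p under 0.05. DESeq2, the tool the submitters name, called 664 of these 15359 genes (4.32%), of which 506 fell (3.29%) and 158 rose. In what follows rose and fell are written of genes past DESeq2's adjusted p of 0.05, and edgeR passed none of them.

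Of the 10 precursors, 1 fell and 0 rose, beside 3.29% of all genes tested that fell. The gene that fell was Sst, which encodes somatostatin, an inhibitory peptide. Both homozygous pools were lower than both heterozygous pools for 4 genes, Calcb, Sst, Npy and Adcyap1, and higher for 1, Calca. The other 5 overlapped. Of the 6 precursors that passed the filter on low counts, edgeR called 0, with 4 at an unadjusted p under 0.05 beside the 13.3% of all genes. Of these 6, 3 did not overlap in the lower direction and 1 in the higher. Among all genes tested 24.5% did not overlap with the homozygous pools lower and 21.6% with the homozygous pools higher. Calca, Npy and Penk reached the filter's limit of 0.292 CPM in every pool, Tac1 in 1 pool of each genotype, and Sst and Adcyap1 in the heterozygous pools only, so the last 2 were tested because of the group in which they were high. Calcb, Gal, Vip and Pdyn did not pass. In these pooled tissues, fewer cells of a type and less RNA per cell cannot be told apart.

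Levels were set against each other as CPM per kb of exon, averaged over the 4 pools. Penk stood first with a mean level of 14.4 CPM per kb and a range over pools of 7.14 to 19.1. Sst followed with 5.75 (0.0864 to 21.2) and Npy with 5.11 (2.65 to 6.84). Calca had 0.715 (0.25 to 1.64), Gal 0.281, Tac1 0.171, Adcyap1 0.118, Calcb 0.0584, Pdyn 0.0428 and Vip 0.00413 CPM per kb. Neighbours in this order overlapped in their ranges over pools, except Npy and Calca. A mean of at least 1 CPM over the 4 pools was reached by 4 of the 10 genes, Penk, Sst, Npy and Calca. The place of Sst rested on 1 pool, since its level was below that of Npy in the other 3.

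**Figure D1:**
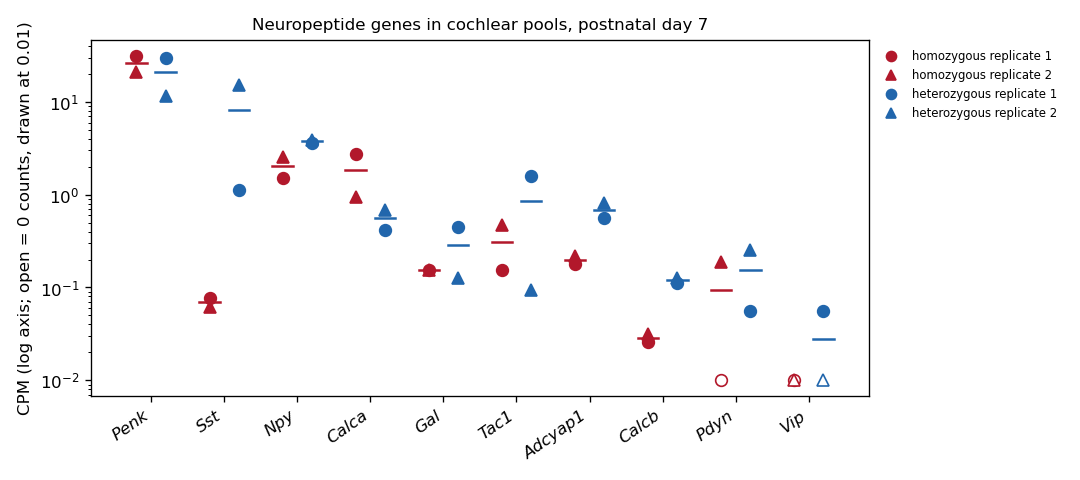
Level of each precursor gene in CPM (log axis) in the 4 pools, in the order of mean level per kb of exon; circles and triangles are pools and bars are genotype means. Both homozygous pools of Sst lie below 0.1 CPM, the Calca pools are higher in homozygous tissue, and the Penk pools overlap.

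Sst was close to undetected in the homozygous pools and spread widely between the heterozygous pools. It had 3 and 2 counts in homozygous replicates 1 and 2, and 40 and 487 counts in heterozygous replicates 1 and 2. Its level averaged 0.0700 ± 0.0108 CPM in homozygous and 8.22 ± 10.04 CPM in heterozygous pools (mean ± SD, n = 2 each). Both homozygous values lay at or under the 3-count limit, and the SD of the heterozygous pair exceeded its mean. The ratio of summed counts per library size was 0.00903, with an exact interval from 0.00292 to 0.0212 that covers counting error only. The log2 fold change was -6.79 ± 1.66 (SE), with an adjusted p of 0.227 by edgeR. DESeq2 gave -6.86 ± 1.67 and an adjusted p of 0.0023. Without heterozygous replicate 2, which held 487 of the counts, the DESeq2 fold change was -4.00 and the adjusted p 0.505. The adjusted p was 0.0797 without homozygous replicate 1, 0.167 without homozygous replicate 2 and 1.55e-16 without heterozygous replicate 1. The authors' deposited table lists 343 genes, with limits at 0.01 for the adjusted p and at 0.5 for the size of the log2 fold change, and none of the 10 precursors is among them. Sst was 1 of 9 genes that passed both limits here and are not in it. The name the authors gave that list mentions removed outliers, without saying what was removed, and why Sst is absent was not tested.

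Sst lies on chromosome 16 from 23889573 to 23890958 on the minus strand (GENCODE M21, GRCm38). Its promoter holds a cAMP response element, the palindrome TGACGTCA to which CREB, a transcription factor switched on by cAMP and calcium signalling, is known to bind. In the RefSeq promoter table (GRCm38.p6, 250 bases before to 50 after each start), which holds 8 of the 10 precursor genes, Sst was the 1 gene of the 8 with the full element, against 1.79% of all 32851 promoters, searched on both strands. The shorter core TGACG, which the full element also contains, was in 6 of the 8 against 20.8% of all promoters. The stretches around the full element of Sst and around the core of Calca, Adcyap1 and Vip are shown because in these precursors the motif lies before the RefSeq start and reads on the gene's own strand. Each runs 5′ to 3′ on the gene's own strand with the motif in capitals.
Sst promoter, chr16:23890874-23890903 minus strand: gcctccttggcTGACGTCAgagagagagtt
Calca promoter, chr7:114636407-114636433 minus strand: aagcacagaggTGACGcaatctgtctg
Adcyap1 promoter, chr17:93198915-93198941 plus strand: gactaggatgcTGACGtcttttactga
Vip promoter, chr10:5639128-5639154 plus strand: gatcactactgTGACGtctttcgggga
The motif began 48 bases before the RefSeq start of Sst, 65 before that of Calca, 91 before the first start of Adcyap1 and 79 before that of Vip. GENCODE starts Sst further upstream than RefSeq does, so that the Sst element lies inside the gene as GENCODE draws it, while the other 3 lie outside. Tac1 holds the core on the opposite strand before its RefSeq start, and Gal holds it after its start. No match was found in these windows of Npy and Pdyn, which says only that these letters are not there, and a match is a description, not a site in use.

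The genes with the pattern over the 4 pools most like that of Sst were Scg2, Gabra5 and Grm5, by Euclidean distance of centred log2 CPM (distances 0.93, 1.65 and 1.81). Scg2 encodes secretogranin II, a protein of dense-core vesicles. It had 84 and 22 counts in the homozygous pools and 251 and 1828 in the heterozygous pools. Gabra5, a GABA-A receptor subunit, had 28 and 22 counts in homozygous and 98 and 264 in heterozygous pools. Grm5, a metabotropic glutamate receptor, had 51 and 18 counts in homozygous and 197 and 357 in heterozygous pools. A shared high pool, heterozygous replicate 2, follows from choosing them by this distance.

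Markers of central inhibitory and cerebellar neurons were mixed, some lower in both homozygous pools as Sst was and some not, and their part in the Sst result was not tested. Somatostatin is known from many inhibitory interneurons of the brain. Gad2, an enzyme of GABA synthesis, had 13 and 4 counts in homozygous and 28 and 46 in heterozygous pools. Slc32a1, the vesicular transporter of inhibitory transmitters, had 17 and 3 counts in homozygous and 32 and 62 in heterozygous pools. Slc6a5, the neuronal glycine transporter, had 0 and 0 counts in homozygous and 3 and 20 in heterozygous pools. None of these 3 passed, and DESeq2's adjusted p was 0.195 for Gad2, 0.193 for Slc32a1 and 0.176 for Slc6a5. Of the 14 markers listed, 11 were tested, 2 fell (Cbln1 and Cbln3, of cerebellar granule cells) and 0 rose, beside 3.29% of all genes that fell. Among the 11, both homozygous pools were lower for 6 and higher for 1, Zic2, and the rest overlapped, Dlx1, Dlx2 and Zic1 among them. Among all genes tested both homozygous pools were lower for 24.5% and higher for 21.6%. Gad1, the other GABA-synthesising enzyme, had 39 and 11 counts in homozygous and 53 and 40 in heterozygous pools. The summed level of the list overlapped, at 178 to 255 CPM in homozygous and 254 to 268 CPM in heterozygous pools. Lhx6, a transcription factor of somatostatin interneurons in the forebrain, had 36 and 20 counts in homozygous and 44 and 20 in heterozygous pools, and overlapped.

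**Figure D2:**
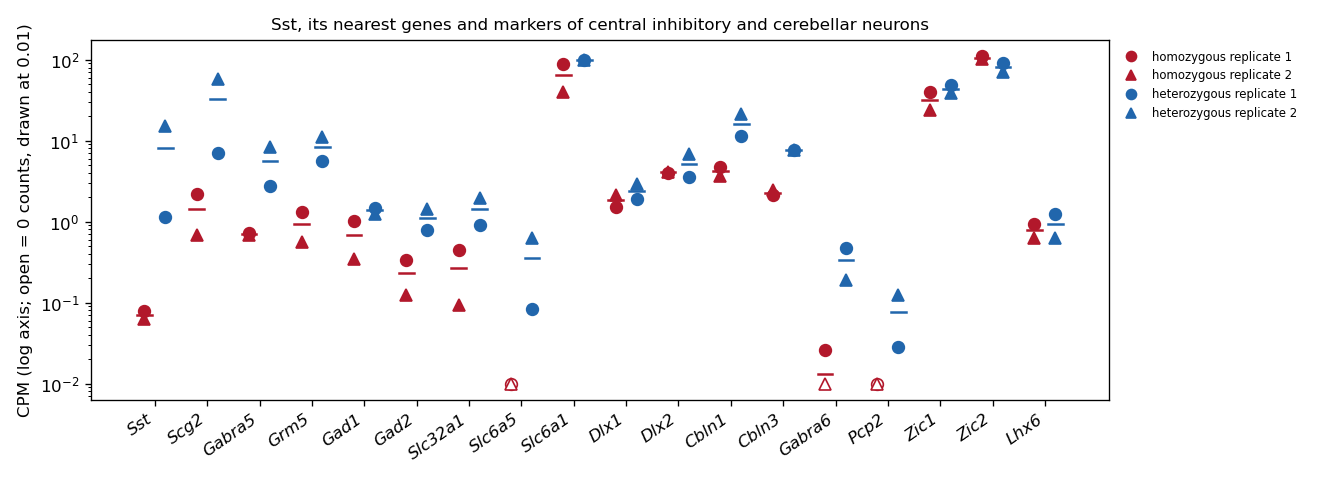
CPM (log axis, open symbols for 0 counts) of Sst, the 3 genes nearest to it in pattern and the 14 markers of central inhibitory and cerebellar neurons; circles and triangles are pools and bars genotype means. Both homozygous pools lie below both heterozygous pools for Sst and Gad2, while Dlx1, Zic1 and Lhx6 overlap and Zic2 is higher in homozygous pools.

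The CGRP genes differed in level and in the side on which the homozygous pools lay. Calca encodes calcitonin and, by splicing, alpha calcitonin gene-related peptide (chromosome 7, 114631478 to 114636357, minus strand). It had 107 and 30 counts in the homozygous pools and 15 and 22 in the heterozygous pools. The homozygous pools were both higher, and replicate 1 more than replicate 2. The mean was 1.85 ± 1.30 CPM in homozygous and 0.557 ± 0.191 CPM in heterozygous pools (SD, n = 2 each). By edgeR the log2 fold change was 1.74 ± 0.65, with an unadjusted p of 0.0451 and an adjusted p of 0.369, and the adjusted p was 0.284 by DESeq2. Without homozygous replicate 1 the edgeR fold change was 0.74, and without homozygous replicate 2 it was 2.32. Calcb, the gene of beta CGRP on the same chromosome (114718643 to 114723365, plus strand), had 1 and 1 counts in homozygous and 4 and 4 in heterozygous pools. Its homozygous pools were lower without overlap, with a count ratio of 0.238 (exact interval 0.0246 to 1.19, which includes 1). The coding sequences of Calca and Calcb resemble each other, and how the authors' estimation split shared reads is not known, so the few Calcb counts are uncertain.

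Calca is a known marker of type II spiral ganglion neurons, the afferents of outer hair cells, so the other markers of these neurons were set beside it. Among all 15359 genes tested, 7954 had a fold change above 0 and 158 rose. Of the 11 markers listed, with Calca and Calcb among them, 9 were tested, 8 of these, Calca included, had a fold change above 0, 1 rose and 0 fell. The one that rose was Gata3, a transcription factor that is also made in other cochlear cells, with 59.7 ± 4.2 CPM in homozygous and 27.5 ± 6.5 CPM in heterozygous pools (SD, n = 2 each; DESeq2 adjusted p 5.29e-06). Prph, the neurofilament protein peripherin, had 102 and 90 counts in homozygous and 54 and 60 in heterozygous pools, without overlap, and DESeq2's adjusted p was 0.612. Etv4, a transcription factor, was the 1 below 0, with 515 and 352 counts in homozygous and 559 and 548 in heterozygous pools, without overlap (DESeq2 adjusted p 0.378). Th, tyrosine hydroxylase, overlapped with 409 and 509 counts in homozygous and 244 and 345 in heterozygous pools. The summed level of the list was 506 to 530 CPM in homozygous and 355 to 434 CPM in heterozygous pools. Somatosensory neurons can also make CGRP, and of 13 of their markers 7 were tested, 1 rose and 0 fell. It was P2rx3, an ATP receptor subunit of sensory neurons, with 253 ± 43 CPM in homozygous and 131 ± 52 CPM in heterozygous pools (DESeq2 adjusted p 0.0124). Trpa1, an irritant-gated channel, had 124 and 85 counts in homozygous and 70 and 41 in heterozygous pools, without overlap (DESeq2 adjusted p 0.491). Runx1, also made in blood cells, overlapped with 674 and 1071 counts in homozygous and 949 and 1148 in heterozygous pools. The nociceptor markers Mrgpra3 and Mrgprx1 were at 0 in all 4 pools, and Scn10a had 1 and 0 counts in homozygous and 0 and 7 in heterozygous pools. The summed level of this list was 247 to 322 CPM in homozygous and 127 to 208 CPM in heterozygous pools. The part of these cell types in the Calca values was not tested.

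The genes most like Calca over the pools were Slc15a5, Ush1c and Htr3a, by the same distance (0.33, 0.453 and 0.489). Slc15a5, of a family of peptide transporters, had 421 and 153 counts in homozygous and 119 and 99 in heterozygous pools. Ush1c, the scaffold protein harmonin, had 203 and 37 counts in homozygous and 25 and 33 in heterozygous pools. Htr3a, a subunit of the serotonin-gated channel, had 142 and 38 counts in homozygous and 41 and 30 in heterozygous pools. None of the 3 passed either test, and the high homozygous replicate 1 follows from choosing them by this distance.

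**Figure D3:**
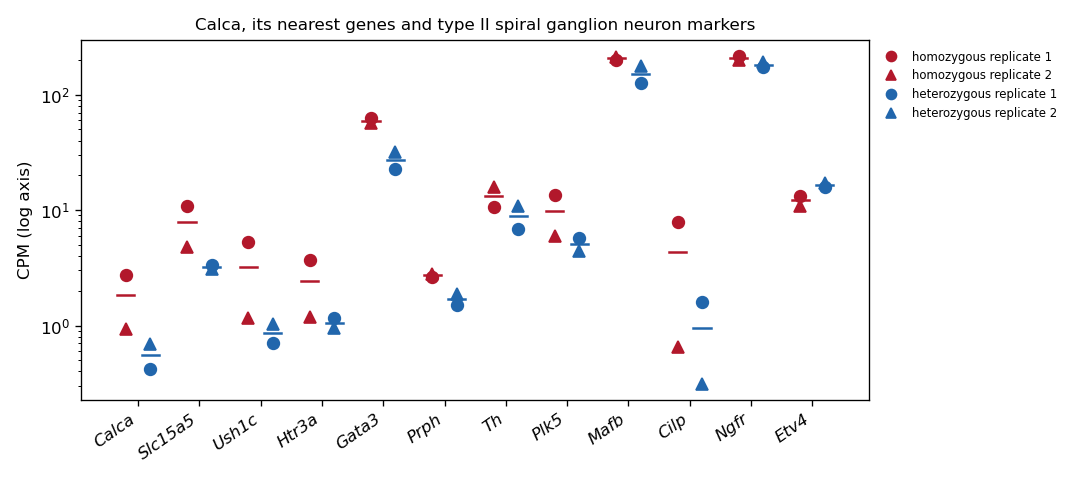
CPM (log axis) of Calca, the 3 genes nearest to it in pattern and type II spiral ganglion neuron markers; circles and triangles are pools and bars genotype means. Gata3 is higher in both homozygous pools, Th overlaps and Etv4 is lower in both homozygous pools.

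Tac1 encodes substance P and neurokinin A, tachykinins of sensory fibres (chromosome 6, 7554879 to 7565834, plus strand). It had 6 and 15 counts in the homozygous pools and 57 and 3 in the heterozygous pools. The heterozygous pools were the highest and the lowest of the 4, so the genotypes overlapped. Its log2 fold change of -1.48 ± 1.27 had an adjusted p of 0.686 by edgeR and 0.878 by DESeq2. It was 1.66 without heterozygous replicate 1, the reverse direction.

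Npy encodes neuropeptide Y, a vasoconstrictor peptide of sympathetic fibres (chromosome 6, 49822710 to 49829507, plus strand). It had 58 and 82 counts in the homozygous pools and 130 and 123 in the heterozygous pools. The heterozygous pools lay close together and both above the homozygous ones. The mean was 2.03 ± 0.75 CPM in homozygous and 3.76 ± 0.15 CPM in heterozygous pools (SD, n = 2 each). By edgeR the log2 fold change was -0.90 ± 0.33, with an unadjusted p of 0.0445 and an adjusted p of 0.368, and DESeq2's adjusted p was 0.380. It lay between -1.32 and -0.57 with a pool left out. Gal, the gene of galanin, an inhibitory peptide of sensory and sympathetic neurons (chromosome 19, 3409915 to 3414544, minus strand), had 6 and 5 counts in homozygous and 16 and 4 in heterozygous pools. The pools overlapped, and the count ratio was 0.524 (exact interval 0.227 to 1.15, which includes 1).

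Markers of sympathetic neurons, which bear on the label of autonomic fibres, were uneven in level. Th, which type II afferents also make, had 6.86 to 15.9 CPM over the 4 pools, and Slc18a2, the vesicular monoamine transporter, had 187 and 116 counts in homozygous and 176 and 116 in heterozygous pools. More specific markers were low. Dbh, the enzyme that makes noradrenaline, had 12 and 0 counts in homozygous and 9 and 0 in heterozygous pools. Hand1, a transcription factor of sympathetic neurons, was at 0 in all 4 pools. Slc6a2, the noradrenaline transporter, had 4 and 11 counts in homozygous and 2 and 0 in heterozygous pools. Of the 13 sympathetic and autonomic markers listed, 7 were tested, 0 rose and 1 fell, Ddc, an enzyme of monoamine synthesis that other cells also make, with 255 and 103 counts in homozygous and 389 and 446 in heterozygous pools (DESeq2 adjusted p 0.0231). The summed level of the list was 74.9 to 75.8 CPM in homozygous and 78.4 to 92.3 CPM in heterozygous pools. Of the efferent cholinergic markers, Chat was at 0 in all 4 pools, and Slc18a3, the vesicular acetylcholine transporter, had 1 and 2 counts in homozygous and 0 and 0 in heterozygous pools. Of that list of 8, 5 were tested and 1 fell, Ache, acetylcholinesterase, which many neurons make. Among all genes tested 3.29% fell. The summed level of the cholinergic list was 72.6 to 75.5 CPM in homozygous pools and 121 CPM in each heterozygous pool. Ache alone had 20.3 and 21.5 CPM in homozygous and 61.5 and 60.0 CPM in heterozygous pools.

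Adcyap1 encodes pituitary adenylate cyclase-activating polypeptide, PACAP, which raises cAMP in neurons and glia (chromosome 17, 93199017 to 93206537, plus strand). It had 7 and 7 counts in the homozygous pools and 20 and 26 in the heterozygous pools. The pools did not overlap. The mean was 0.20 ± 0.026 CPM in homozygous and 0.690 ± 0.181 CPM in heterozygous pools (SD, n = 2 each). The count ratio was 0.29 (exact interval 0.147 to 0.536, which covers counting error only and not the spread between pools). The log2 fold change was -1.77 ± 0.49 by edgeR, with an unadjusted p of 0.0165 and an adjusted p of 0.269, and DESeq2's adjusted p was 0.455. Vip, the gene of vasoactive intestinal peptide, a relative of PACAP (chromosome 10, 5639218 to 5647617, plus strand), had 0 and 0 counts in homozygous and 2 and 0 in heterozygous pools. Vip was at or under the 3-count limit in every pool, so no difference was detectable at this depth.

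The opioid precursors stood at opposite ends of the order of levels. Penk encodes proenkephalin, the precursor of the enkephalins (chromosome 4, 4133531 to 4138819, minus strand). It had 1204 and 680 counts in the homozygous pools and 1072 and 371 in the heterozygous pools. Replicate 1 was the higher pool in both genotypes, and the genotypes overlapped. The mean was 26.2 ± 7.0 CPM in homozygous and 20.9 ± 13.1 CPM in heterozygous pools (SD, n = 2 each). Its log2 fold change of 0.32 ± 0.47 had an adjusted p of 0.829 by edgeR and 0.996 by DESeq2. It was -0.20 without heterozygous replicate 2. A830012C17Rik overlaps Penk on the other strand, and the labels do not say whether the counting used strand. Pdyn, the gene of prodynorphin (chromosome 2, 129686565 to 129699844, minus strand), had 0 and 6 counts in homozygous and 2 and 8 in heterozygous pools. For Pdyn too the genotypes overlapped, with replicate 2 higher in each, and the count ratio was 0.571 (exact interval 0.171 to 1.73, which includes 1).

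Receptors for the 10 peptides were led by the PACAP receptor. Of 28 receptor genes and receptor partners listed, 15 were tested, 1 fell and 0 rose, beside 3.29% of all genes that fell. The median log2 fold change was 0.12, against 0.0087 for all genes tested. The one that fell was Adcyap1r1, which encodes PAC1, the receptor that prefers PACAP over vasoactive intestinal peptide. It had 1963 and 924 counts in the homozygous pools and 2837 and 3254 in the heterozygous pools. The pools did not overlap, and homozygous replicate 2 was the lowest. The mean was 39.8 ± 16 CPM in homozygous and 91.0 ± 16 CPM in heterozygous pools (SD, n = 2 each), a log2 fold change of -1.19 ± 0.30 with an adjusted p of 0.233 by edgeR and 0.00157 by DESeq2. The DESeq2 adjusted p was 0.183 without heterozygous replicate 2. The authors' deposited table gives -1.18 for Adcyap1r1 with an adjusted p of 0.00149. The ligand gene Adcyap1 was also lower in both homozygous pools, as above, without passing either test. Astrocytes are known to make PAC1, so central glia markers were set beside it. Their summed level was 931 to 2295 CPM in homozygous and 2607 to 2747 CPM in heterozygous pools, with homozygous replicate 2 the lowest as for Adcyap1r1. The list also holds oligodendrocyte genes, Mag and Mobp among them. Of these 14 markers 3 fell, Slc1a2, Slc1a3 and Aldh1l1, beside 3.29% of all genes, while Gfap overlapped. Both homozygous pools were lower for 10 of the 14 and higher for 1, beside 24.5% and 21.6% of all genes tested. The median log2 fold change of the list was -0.91. The part of these markers in the result was not tested.

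No other receptor passed the test. Ramp2, the highest of the CGRP and adrenomedullin receptor parts, had 33.1 ± 0.95 CPM in homozygous and 28.6 ± 1.0 CPM in heterozygous pools (DESeq2 adjusted p 0.659). Calcrl, its partner, had 17.8 ± 1.9 CPM in homozygous and 18.9 ± 3.2 CPM in heterozygous pools. Ramp1, also a partner of Calcrl, overlapped with 16.3 ± 3.0 CPM in homozygous and 17.2 ± 5.8 CPM in heterozygous pools. Oprl1, the nociceptin receptor, had 18.4 ± 0.22 CPM in homozygous and 23.7 ± 0.64 CPM in heterozygous pools, without overlap (log2 fold change -0.36 ± 0.10, DESeq2 adjusted p 0.268). Sstr1, the highest somatostatin receptor, had 908 and 187 counts in homozygous and 636 and 112 in heterozygous pools. Replicate 1 was the high pool of Sstr1 in each genotype, unlike Sst. Npy1r, the vasoconstrictor receptor of neuropeptide Y, overlapped with 125 and 54 counts in homozygous and 137 and 18 in heterozygous pools. The highest receptors of the other families had levels of 0.490 CPM in homozygous and 0.459 CPM in heterozygous pools for Tacr3, 1.15 CPM in homozygous and 1.39 CPM in heterozygous pools for Galr2, and 0.949 CPM in homozygous and 0.869 CPM in heterozygous pools for Vipr1. The mu opioid receptor Oprm1 and the tachykinin receptor Tacr2 were at 0 in all 4 pools. The kappa opioid receptor Oprk1 had 21 and 27 counts in homozygous and 26 and 8 in heterozygous pools. The delta opioid receptor Oprd1 had 3 and 4 counts in homozygous and 2 and 9 in heterozygous pools, and both genes overlapped.

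Among genes that cut, pack and degrade peptides, several vesicle proteins were lower in homozygous pools. Among all 15359 genes tested 3.29% fell and 158 rose. All 23 listed here were tested, of which 6 fell and 1 rose, and their median log2 fold change was -0.16. Those that fell were the granins Chgb, Chga and Scg2, which form the core of dense-core vesicles, the prohormone convertase Pcsk2, its chaperone Scg5, and Mme, neprilysin, which degrades peptides outside the cell. Chgb had 6695 and 5719 counts in homozygous and 9831 and 9195 in heterozygous pools, which is 176 ± 3.6 CPM in homozygous and 283 ± 9.1 CPM in heterozygous pools. Its log2 fold change was -0.69 ± 0.08 (DESeq2 adjusted p 2.49e-09, edgeR adjusted p 0.114). Pcsk2 had 776 and 717 counts in homozygous and 1418 and 1066 in heterozygous pools (-0.79 ± 0.13, DESeq2 adjusted p 6.67e-04). The fold change was -0.46 ± 0.08 for Scg5, -0.46 ± 0.09 for Chga, -0.49 ± 0.11 for Mme and -4.46 ± 1.19 for Scg2. Their DESeq2 adjusted p lay between 0.00233 for Scg5 and 0.0426 for Scg2. The gene that rose was Ece1, endothelin-converting enzyme, with 7267 and 5957 counts in homozygous and 4889 and 4527 in heterozygous pools (0.42 ± 0.07, DESeq2 adjusted p 0.00142). Cpe, the carboxypeptidase that trims peptide ends, had 515 ± 42 CPM in homozygous and 517 ± 20 CPM in heterozygous pools.

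Neuronal markers were lower in the same pools as these vesicle genes. Of 25 markers of spiral ganglion or any neurons, 12 fell and none rose, beside 3.29% of all genes that fell. Their median log2 fold change was -0.52. Their summed level was 6670 to 7008 CPM in homozygous and 9543 to 9685 CPM in heterozygous pools. The part of neuronal RNA in the vesicle genes was not tested. The direction held with each pool left out, while most calls did not, and fewer pools leave the test less power. The DESeq2 fold change ranged from -0.71 to -0.66 for Chgb, from -0.52 to -0.39 for Chga, from -0.51 to -0.40 for Scg5 and from 0.40 to 0.44 for Ece1 with a pool left out. Scg2 was the exception in size, at -2.30 without heterozygous replicate 2 and -5.55 without homozygous replicate 1. Chgb missed the DESeq2 threshold without heterozygous replicate 2 (adjusted p 0.061), Ece1 missed it without any 1 of the 4 pools (0.122 to 0.682), and Chga and Scg5 passed only without homozygous replicate 1 (0.0146 and 0.0271). Mme and Pcsk2 passed only without homozygous replicate 2 (0.0327 and 0.0315), and Scg2 only without heterozygous replicate 1 (0.00425). The authors' deposited table lists Chgb at -0.68 and Pcsk2 at -0.78 on the log2 scale. Of the 7 processing and vesicle genes past DESeq2, all in the promoter table, 2 hold the full cAMP response element, Scg2 and Chgb, and 5 hold the core. Among all promoters, 1.79% hold the full element and 20.8% the core, and some of the 7 genes have more than 1 promoter. The stretches around the full element are shown for comparison with Sst, in the same form.
Scg2 promoter, chr1:79440076-79440105 minus strand: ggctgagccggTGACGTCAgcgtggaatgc
Chgb promoter, chr2:132781559-132781588 plus strand: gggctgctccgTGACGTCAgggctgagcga
The element began 68 bases before the RefSeq start of Scg2 and 72 before that of Chgb, and lies inside both genes as GENCODE draws them, as for Sst.

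**Figure D4:**
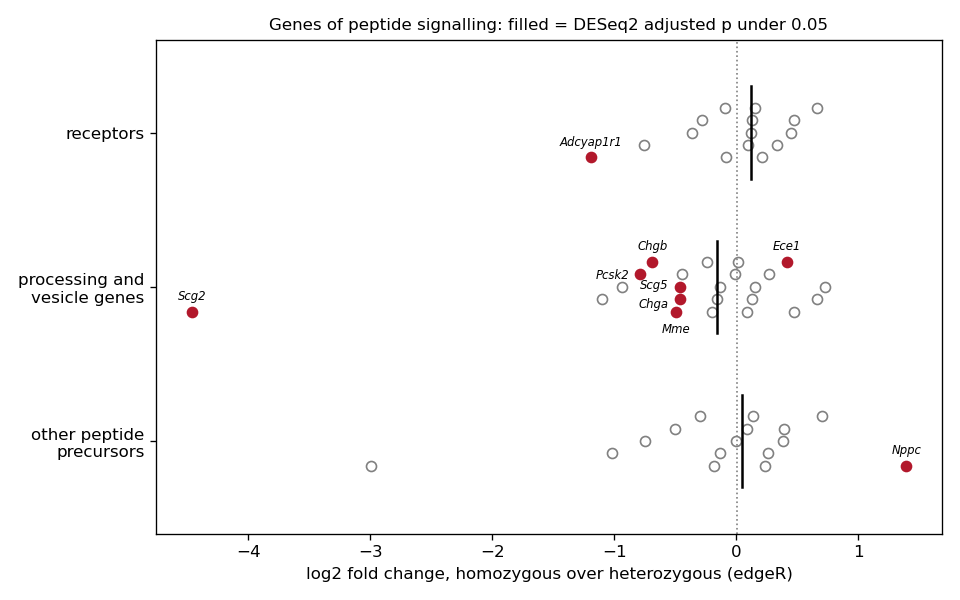
Log2 fold change (edgeR, homozygous over heterozygous) of each tested receptor, processing or vesicle gene and other peptide precursor; filled points passed DESeq2's adjusted p of 0.05, black bars are list medians and the dotted line is the median of all genes tested. Filled points lie left of the line for Adcyap1r1 and 6 processing genes and right of it for Ece1 and Nppc.

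Other peptide precursors were mostly at low counts. Of 46 listed, 8 were at 0 in all pools and 16 were tested. Among all 15359 genes tested 158 rose and 3.29% fell. Of the 16, 1 rose and 0 fell, with a median log2 fold change of 0.045. The one that rose was Nppc, the gene of C-type natriuretic peptide, which acts through cyclic GMP. It had 446 and 301 counts in the homozygous pools and 177 and 94 in the heterozygous pools. Both homozygous pools were higher, at 10.5 ± 1.5 CPM against 3.97 ± 1.4 CPM in heterozygous pools (SD, n = 2 each). The log2 fold change of Nppc was 1.40 ± 0.30, with an adjusted p of 0.203 by edgeR and 0.00345 by DESeq2. The DESeq2 adjusted p was 0.237 without homozygous replicate 1, 0.0943 without homozygous replicate 2, 0.365 without heterozygous replicate 2 and 0.00568 without heterozygous replicate 1. Pnoc, the precursor of nociceptin, had 1 and 3 counts in homozygous and 12 and 20 in heterozygous pools (log2 fold change -2.99 ± 0.81, DESeq2 adjusted p 0.299). Edn3, endothelin 3, had 25.2 ± 3.1 CPM in homozygous and 19.2 ± 1.1 CPM in heterozygous pools (0.39 ± 0.13, DESeq2 adjusted p 0.307).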

How the data were processed

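Estimated counts per gene symbol were deposited by the authors, who used Salmon and mm10 per the submitters' processing notes and ran nf-core per the labels. The authors also deposited the genes called in their DESeq2 comparison, with mean normalised signal, log2 fold change and its error, Wald score and p-values, per the file headers. Poly-T-selected RNA had integrity values above 9 per the labels' protocols. The sources used here give neither strand nor annotation version.

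Estimated counts were rounded to whole numbers. edgeR 4.0.16 (TMM scaling, filterByExpr, quasi-likelihood F test, R 4.3.3) was the main test and DESeq2 1.42.0 (Wald test, default settings) the other. Each had a single term for genotype and adjustment by Benjamini-Hochberg. edgeR was fitted and adjusted over the 15359 genes that passed its filter. DESeq2 was fitted on the whole table and adjusted over the genes that its own default filter kept. Its calls over all genes were counted among edgeR's 15359, except in the comparison with the authors' list. With 2 pools against 2, no exact permutation test of a single gene can pass 0.05, and none was run. CPM use TMM-scaled library sizes. The 10 genes and the lists of receptors, processing genes, other precursors and cell markers were chosen with earlier results of these data known. Genes outside the 10 were named by DESeq2's adjusted p, by smallest edgeR p, as highest receptor of a family, or by likeness, and single markers were also named after their values were seen. Scripts were tested on simulated counts. Other scalings, filters, a replicate block and leaving out each pool were also run; DESeq2 with pools left out was chosen after seeing the data. Each pool was treated as a replicate. Pools of one genotype were not alike within sampling noise (chi-square over degrees of freedom, 47.3 in homozygous and 28.7 in heterozygous pools). This excess does not show that the pools are independent, and the homozygous pools also differed in sex-linked RNA.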

Additional observations from a re-analysis of the deposited data

How the results depend on the processing

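The 4 genes Calca, Npy, Adcyap1 and Sst kept the direction of their edgeR fold change under RLE and upper quartile scaling, no filter, the replicate block, DESeq2 and each left-out pool. A stricter filter of 1 CPM in 2 pools gave no value for Calca, Tac1 and Adcyap1. Scaling moved the median of all genes by less than 0.1. Sst passed under the replicate block (-6.46, adjusted p 0.0238) and with DESeq2 (-6.86, 0.0023). With a pool left out, its fold change ranged from -7.69 to -3.93 by edgeR and from -7.76 to -4.00 by DESeq2. Leaving out a pool reversed Tac1 (edgeR -2.44 to 1.66, DESeq2 -2.45 to 1.72) and Penk (edgeR -0.20 to 1.17, DESeq2 -0.21 to 1.17), and the cause was not tested. The labels do not pair the pools, and same-numbered pools' deviations correlated at 0.359 over only 2 pairs. With the replicate block edgeR called 132 genes higher and 363 lower, against 158 and 506 by DESeq2, and among them 1 of the 10 precursors lower (1 by DESeq2), 1 processing gene higher and 4 lower (1 and 6 by DESeq2), 1 other precursor higher (1 by DESeq2) and 0 receptors lower (1 by DESeq2). With a pool left out, edgeR called 0 to 2 genes higher and 0 to 58 lower and none of the 10 precursors. DESeq2 then called 50 to 133 genes higher and 113 to 552 lower, with 0 to 1 of the 10 precursors, 0 to 1 receptors and 0 to 4 processing genes lower, and 0 to 1 processing genes and 0 to 1 other precursors higher. Precision is limited by 2 pools per genotype and, for Calcb, Gal, Vip and Pdyn, by counts of 16 or fewer in every pool.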

Other observations

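Among the other precursors, Gcg, the gene of proglucagon, stood above Penk in level, a gene singled out after its values were seen. It had 2327 and 942 counts in the homozygous pools and 2018 and 875 in the heterozygous pools. Its mean level over the 4 pools was 29.1 CPM per kb of exon, against 14.4 for Penk. As for Penk, replicate 1 was the higher pool in both genotypes. The genotype means were 44.8 ± 22 CPM in homozygous and 42.1 ± 21 CPM in heterozygous pools (SD, n = 2 each), and DESeq2's adjusted p was above 0.99.

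Genes known best from hair cells were uneven in these libraries. Of 14 listed, 6 were tested, 2 fell (Otof and Pvalb) and 1 rose (Espn). Among all 15359 genes tested 3.29% fell and 158 genes rose. The summed level of the 14 was 332 to 362 CPM in homozygous and 518 CPM in each heterozygous pool. Most of that sum in every pool was Pvalb, a calcium buffer that spiral ganglion neurons also make. Pvalb had 11142 and 7858 counts in homozygous and 15896 and 14118 in heterozygous pools. Myo7a, an unconventional myosin, overlapped with 1207 and 1457 counts in homozygous and 1197 and 1467 in heterozygous pools. Other members were low. Atoh1, a transcription factor of developing hair cells, was at 0 in all 4 pools, and Pou4f3, a hair cell transcription factor, had 0 and 0 counts in homozygous and 7 and 0 in heterozygous pools. Slc26a5, prestin of outer hair cells, had 6 and 0 counts in homozygous and 7 and 3 in heterozygous pools. Schwann cell and satellite glia markers had the highest summed level of the marker lists, 21676 to 25843 CPM in homozygous and 42245 to 43825 CPM in heterozygous pools. Of these, 8 of 14 fell, beside 3.29% of all genes. Fibroblast and mesenchyme markers had a summed level of 11893 to 12774 CPM in homozygous and 8043 to 9340 CPM in heterozygous pools. Of these, 4 of 15 rose, beside 158 of all 15359 genes tested.

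The genes nearest in pattern to Tac1 and Penk were also looked up, outside the naming rule. Nearest to Tac1 was Mmp13, a collagenase (distance 0.226). Nearest to Penk was Sp100 (distance 0.0828).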
